A study of Mus musculus with 6 samples.

Results

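The genes of the autophagy machinery were examined in RNA from cultured mouse microglia. A gene was taken as a member when its mouse symbol was Atg followed by a number, with any suffix, or was 1 of 19 further symbols: Ulk1, Ulk2, Becn1, Rb1cc1, Pik3c3, Pik3r4, Uvrag, Wipi1, Wipi2, Map1lc3a, Map1lc3b, Gabarap, Gabarapl1, Gabarapl2, Optn, Nbr1, Calcoco1, Epg5 and Ambra1. This gave 38 genes of the 49644 gene identifiers in the count table. The rule itself reads symbols and no measured value, but it was drawn up with earlier results of these data known. Of the 38, 37 had enough counts to be tested. The other was Atg4a-ps, a pseudogene whose mean level was 0.0322 CPM in control and 0.0415 CPM after EVs (CPM, counts scaled to a common total on TMM library sizes). Atg9a shares an entry with 2 other genes, because the authors' table joins genes whose exons overlap on a strand, and it is described both joined and alone.

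The study has 6 samples of microglia, the resident macrophages of the brain, in 2 groups of 3. All 6 have the strain or background CD1. The control group received a control treatment whose content is not given in the sources used here, and the other group received extracellular vesicles (EVs, membrane particles that cells release). These EVs were spun down from cultures of primary neural stem cells of the subventricular zone, a stem cell niche of the brain, also from CD1 mice. Dose, time in culture, age and sex are not given, and nothing states whether the 3 samples within each group were independent cultures or preparations. The p-values hence refer to variation among these 6 samples only, some or all of it possibly technical.

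Macroautophagy wraps cytoplasm, damaged organelles or microbes in a double membrane, the autophagosome, and delivers them to lysosomes for breakdown. The ULK1 kinase complex starts the process, a PI3-kinase complex marks the membrane with PI3P, ATG9 vesicles and ATG2 supply lipid, and 2 ubiquitin-like conjugation systems couple ATG8 proteins to the growing membrane, where cargo receptors bind them. In microglia and other macrophages the same genes also serve the handling of phagocytosed material and microbes.

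Library totals ran from 109744701 to 162544804 counts. Of 16605 gene entries tested, 11037 (66.5%) differed between the groups (edgeR quasi-likelihood test, Benjamini-Hochberg adjusted p under 0.05 over all entries, 2-sided), of which 5482 rose and 5555 fell, so a change by itself was common in these libraries. The summed level of 12 microglia markers ran from 7806 to 9612 CPM in the control group and from 5168 to 5455 CPM after EVs, and 8 of the 12 fell. Csf1r was at 775 and 807 CPM, while Tmem119 and P2ry12, markers of resting microglia, were low already in control, at 7.69 and 3.77 CPM. Other cell types were lower in summed level: 9 oligodendrocyte lineage markers gave 218 to 444 CPM in control and 35.4 to 47.5 CPM after EVs, 7 neural stem cell markers 46.0 to 82.7 and 3.11 to 4.35, 7 astrocyte markers 10.9 to 15.6 and 88.3 to 124, 6 fibroblast markers 15 to 41.2 and 13.8 to 20.2, 4 endothelial markers 4.60 to 6.0 and 24.6 to 35, and 6 neuronal markers 0.471 to 0.610 and 0.312 to 0.800. No marker was at 0 in every library. The astrocyte markers did not move together. Slc1a2, a glutamate transporter gene, rose from 0.0952 ± 0.0805 to 74.8 ± 17.7 CPM (log2 fold change 9.47), Gja1, the connexin 43 gene, from 0.0943 ± 0.0378 to 29.1 ± 2.83 CPM (8.21) and Slc1a3 from 0.0881 ± 0.0306 to 0.337 ± 0.125 CPM (1.92). Aldh1l1, counted in a joined entry, fell from 13.4 ± 2.43 to 1.72 ± 0.635 CPM (-2.96), and Gfap, Aqp4 and Sox9 did not exceed 0.143, 0.0477 and 0.0781 CPM in any library. The log2 ratio of Y-linked to Xist counts spanned -1.35 to -3.86 in the control group and -4.86 to -5.51 after EVs. The ranges did not overlap, so the effects of treatment and of whatever this ratio tracks cannot be told apart in these 6 libraries. Values with the ratio as a covariate are given beside the results as an alternative. They rest on how the ratio varies within groups, which is mainly the distance of control library C (-3.86) from control libraries A (-1.35) and B (-1.65), and they do not separate the 2. The part of other cells in the results was not tested, and in bulk RNA fewer cells of a type and less RNA per cell cannot be told apart.

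Of the 37 autophagy genes tested, 25 rose (67.6%), 7 fell (18.9%) and 5 did not pass, against 33.0% that rose and 33.5% that fell among all entries. The median log2 fold change was 0.49, with a range of -1.45 to 2.08, and the median of all entries was -0.016. In 33 of the 37 (89.2%) the 3 EV-treated libraries lay wholly above or below the 3 control libraries, against 71.3% of all entries. These were 26 genes above and 7 below. Changes of at least 1 on the log2 scale were found upward in 8 (20.4% of all entries) and downward in 1 (19.6% of all entries). The direction of the smaller changes depends on the scaling: on library totals alone 15 rose, 8 fell and the median was 0.12, with the median of all entries at -0.38. With the Y-linked to Xist ratio as a covariate 17 rose and 2 fell, and the median was 0.57, with the median of all entries at -0.029. The shares of all entries that rose or fell under either alternative are not given here.

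**Figure D1:**
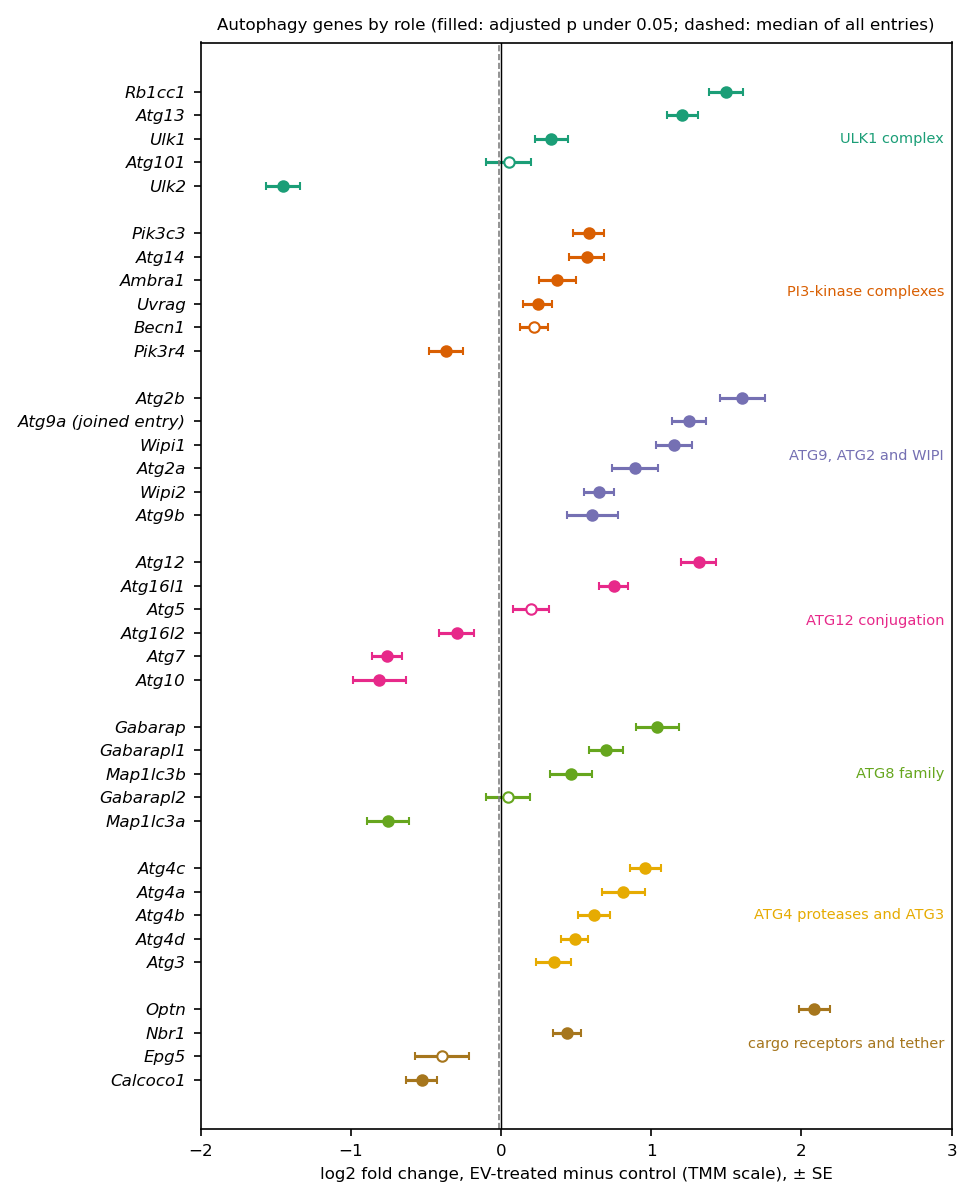
Log2 fold change of the 37 tested autophagy genes, EV-treated minus control, in 7 role groups; the horizontal axis is log2 on the TMM scale, bars are ± 1 SE from the edgeR fit, filled points have an adjusted p under 0.05, and the dashed line is the median of all entries. Optn lies farthest to the right at 2.08 and Ulk2 farthest to the left at -1.45, and the 6 genes of the ATG9, ATG2 and WIPI group and the 5 of the ATG4 and ATG3 group are all filled and above 0 on this scale (Atg3 was at -0.024 on library totals alone).

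The promoters of the members with the highest rise and the deepest fall are printed because their windows can be read against the motif counts below. Sequences are from RefSeq (GRCm38.p6), 250 bases up to the transcript start on the gene's strand, at chr2:5064118-5064367 (minus) for Optn and chr11:61855093-61855342 (minus) for Ulk2. Neither holds any of the 5 motifs searched, and both are therefore in lower case throughout.

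Optn: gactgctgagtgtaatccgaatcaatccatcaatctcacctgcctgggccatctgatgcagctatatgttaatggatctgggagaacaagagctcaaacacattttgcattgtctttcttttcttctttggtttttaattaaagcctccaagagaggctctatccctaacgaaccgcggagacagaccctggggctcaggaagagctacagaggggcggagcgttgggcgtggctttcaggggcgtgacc

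Ulk2: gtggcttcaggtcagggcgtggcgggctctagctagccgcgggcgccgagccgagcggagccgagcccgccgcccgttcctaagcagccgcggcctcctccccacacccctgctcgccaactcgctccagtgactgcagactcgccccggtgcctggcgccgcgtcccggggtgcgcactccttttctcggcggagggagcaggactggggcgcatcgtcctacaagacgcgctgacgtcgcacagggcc

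RefSeq windows were found for 30 of the 38 members, in 33 windows of 32851. CACGTG, the E-box read by TFEB and its relatives and its own reverse complement, was in the windows of 3 members (Atg3, Atg5 and Atg7) and in 6.02% of all windows. TCACGTGA, which contains it, was in Atg3 and in 0.785% of all windows. On both strands, GTAAACA (FOXO; 3.17% of windows) and TGANTCA (AP-1; 6.75%) were in no member window, and TGACGTCA (CRE; 1.55%) was in Atg16l2. A match is a description of letters and not a binding site. The 3 members with an E-box did not move together: Atg3 was at 0.35 (log2 fold change), Atg5 at 0.20 and Atg7 at -0.76. Their E-boxes are printed in capitals, within the 250-base window of Atg5 at chr10:44268089-44268338 (plus), in a 30-base stretch of Atg3 at chr16:45158735-45158764 (plus) and in a 30-base stretch of Atg7 at chr6:114670964-114670993 (plus). The Atg7 stretch belongs to a RefSeq start 27867 bases inside the gene as the count table bounds it.

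Atg5: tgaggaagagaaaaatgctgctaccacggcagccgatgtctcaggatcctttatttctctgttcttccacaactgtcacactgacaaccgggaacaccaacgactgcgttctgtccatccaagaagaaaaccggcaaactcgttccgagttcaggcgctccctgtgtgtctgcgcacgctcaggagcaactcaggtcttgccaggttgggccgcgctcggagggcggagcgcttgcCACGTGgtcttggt

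Atg3: CACGTGtcctgggagagtcgagtCACGTGa

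Atg7: CACGTGtgcagtaagtgaagtaaatgaatc

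The ULK1 complex, which receives the signal to start autophagy, split by subunit. Of 5 genes 3 rose, 1 fell and 1 did not pass; their median log2 fold change was 0.34. The scaffold genes rose and the kinase Ulk2 fell. Rb1cc1 (chr1:6206197-6276648), which encodes the large scaffold FIP200, stood at 31.4, 29.4 and 33.3 CPM in control libraries A, B and C and at 76.9, 95.6 and 93.1 CPM in EV-treated libraries A, B and C. The lowest EV-treated library, at 76.9 CPM, was far above the highest control library, at 33.3 CPM. The log2 fold change was 1.5 (SE 0.12, edgeR adjusted p = 2.51e-06). Atg13 (chr2:91674618-91710576), the adaptor that holds the kinase to FIP200, went from 71.3, 65.2 and 63.1 CPM to 164, 145 and 152 CPM. The groups did not overlap, and the log2 fold change was 1.21 (SE 0.10, edgeR adjusted p = 5.27e-06).

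Ulk2 (chr11:61775649-61855073), 1 of the 2 kinases of the complex, was at 70.9, 62.2 and 77.2 CPM in the control group and at 25.9, 23.9 and 27.2 CPM after EVs. Every EV-treated library was below every control library, and the gene fell by 1.45 on the log2 scale (SE 0.11, edgeR adjusted p = 2.70e-06). Its paralog Ulk1, the other kinase, was at 63.3 ± 5.18 CPM (SD, n = 3) in control and 79.8 ± 6.19 CPM after EVs (log2 fold change 0.34, edgeR adjusted p = 0.0196). In control the 2 kinase genes had similar counts, and per kilobase of exon Ulk2 was at 11.7 and Ulk1 at 9.75 CPM. After EVs the order was the other way, 4.29 for Ulk2 and 12.3 for Ulk1. These are sums over 32 bins for Ulk2 and 55 for Ulk1, and a read over several bins may be counted in each. Whether the order of the 2 genes holds with a single bin per gene was not tested. Atg101, which stabilises Atg13, was at 12.6 ± 2.29 and 13.0 ± 1.28 CPM (adjusted p = 0.788). The Ulk1 call was lost without control library B or EV-treated library A or C (edgeR adjusted p = 0.0655 to 0.108). On library totals alone its log2 fold change was -0.028, and with the Y-linked to Xist ratio as a covariate it was 0.23 with an edgeR adjusted p of 0.42.

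Among 6 genes of the PI3-kinase complexes, which make PI3P on the forming membrane, 4 rose, 1 fell and 1 did not pass; their median log2 fold change was 0.31. No change reached 1 on the log2 scale. Pik3c3 (chr18:30272747-30348126), the catalytic subunit VPS34, went from 31.8, 32.8 and 37.0 CPM to 52.9, 52.8 and 46.6 CPM. The groups did not overlap, and the log2 fold change was 0.58 (SE 0.11, edgeR adjusted p = 0.000809). It was 0.21 on library totals alone (adjusted p = 0.111) and 0.42 with the Y-linked to Xist covariate (adjusted p = 0.121). Atg14, which directs the complex to the site of autophagosome formation, was at 14.3 ± 0.880 and 21.3 ± 2.27 CPM (0.57, adjusted p = 0.00176; 0.20 on library totals alone, adjusted p = 0.125). Uvrag, which takes the place of Atg14 in the endosomal complex, was at 37.8 ± 1.84 and 44.8 ± 2.42 CPM (0.24, adjusted p = 0.0463), and Ambra1, a regulator that binds Beclin 1, at 47.2 ± 3.62 and 61.3 ± 8.74 CPM (0.38, adjusted p = 0.0235). The Uvrag call was lost without any 1 library except EV-treated C (edgeR adjusted p = 0.0847 to 0.225), and the Ambra1 call without control library A or B or EV-treated library A or C (0.0536 to 0.12).

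Pik3r4, which encodes the regulatory subunit VPS15, fell while its catalytic partner rose: 40.4 ± 2.08 CPM in control and 31.3 ± 3.87 CPM after EVs (log2 fold change -0.37, edgeR adjusted p = 0.017). Without control library A its edgeR adjusted p was 0.0503, with the Y-linked to Xist covariate 0.0935 and by the bin with the most counts 0.221. Becn1, the Beclin 1 gene at the core of both complexes, was at 152 ± 2.61 and 177 ± 7.32 CPM and did not pass (0.22, adjusted p = 0.0668), although its groups did not overlap. It passed with RLE scaling (edgeR adjusted p = 0.0481), a stricter filter (0.0372) and a replicate block (0.0367). DESeq2 (adjusted p = 0.0209) and the bin with the most counts (0.49, edgeR adjusted p = 0.00384) also gave a pass. On library totals alone Becn1 was at -0.15 (edgeR adjusted p = 0.194). Exons of Cntd1 on the other strand cover 43.9% of the bases counted for Becn1, and Cntd1 was at 16.6 CPM in control and 21.6 CPM after EVs. On library totals alone none of the 6 rose and 1 fell, and with the Y-linked to Xist ratio as a covariate 1 rose and none fell.

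All 6 genes of the ATG9, ATG2 and WIPI group rose, with a median log2 fold change of 1.02. This group supplies lipid to the membrane: ATG9 proteins are scramblases carried on vesicles, ATG2 proteins transfer lipid between membranes, and WIPI proteins bind PI3P and recruit the later machinery. Of the 6, 5 rose on library totals alone (Atg9b at 0.24, adjusted p = 0.287), and 4 with the Y-linked to Xist covariate (Atg9b at 0.21, adjusted p = 0.612, and Atg2a at 0.74, adjusted p = 0.0887).

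Atg2b (chr12:105613539-105685241) stood at 31.3, 25.2 and 29.5 CPM in control and at 86.0, 71.6 and 104 CPM after EVs. The EV-treated libraries were all above the control ones but spread more, from 71.6 to 104 CPM. Its log2 fold change was 1.61 (SE 0.15, edgeR adjusted p = 9.64e-06). The paralog Atg2a was at 72.1 ± 1.04 and 134 ± 28.9 CPM (0.89, adjusted p = 0.00056). Wipi1 (chr11:109573331-109611967) went from 22.6, 17.5 and 18.1 CPM to 43.7, 40.5 and 45 CPM. No library of one group reached the other, and the log2 fold change was 1.15 (SE 0.12, edgeR adjusted p = 2.23e-05). Wipi2, which recruits ATG16L1, was at 40.9 ± 3.0 and 64.3 ± 2.34 CPM (0.65, adjusted p = 0.000242), but its bin with the most counts gave 0.13 (adjusted p = 0.361). Atg9b, the lowest expressed of the group, was at 4.43 ± 0.704 and 6.75 ± 0.898 CPM (0.61, adjusted p = 0.00961).

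Atg9a, the widely expressed ATG9, is counted in an entry with Abcb6, an ABC transporter gene that lies just downstream, and the gene model Gm29253 (chr1:75171717-75192196 for the whole entry). The entry went from 41.8, 42.0 and 34.8 CPM to 99.7, 85.5 and 97.0 CPM (log2 fold change 1.25, SE 0.12, edgeR adjusted p = 8.75e-06). The bins can be divided by the GENCODE vM21 exons of Atg9a and Abcb6. Exons of Gm29253 were not used in this division, so bins of either part may also belong to that gene model. The 34 bins in exons of Atg9a and not of Abcb6 (chr1:75180860-75192196) held 29.6, 29.1 and 23.7 CPM in control and 86.6, 71.9 and 84.2 CPM after EVs, with no overlap. Their log2 fold change was 1.56 (SE 0.12, edgeR adjusted p = 3.13e-06). The 38 bins in exons of Abcb6 and not of Atg9a (chr1:75171717-75180392) held 12.1 ± 0.976 and 13.2 ± 0.445 CPM, with log2 fold change 0.12 (SE 0.11, adjusted p = 0.359). So the entry as deposited understates the change over the Atg9a exons. Over the tested bins the log2 ratio ran from 1.01 to 2.64 in the 28 of Atg9a and from -0.17 to 0.47 in the 24 of Abcb6, and the 2 ranges did not overlap.

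**Figure D2:**
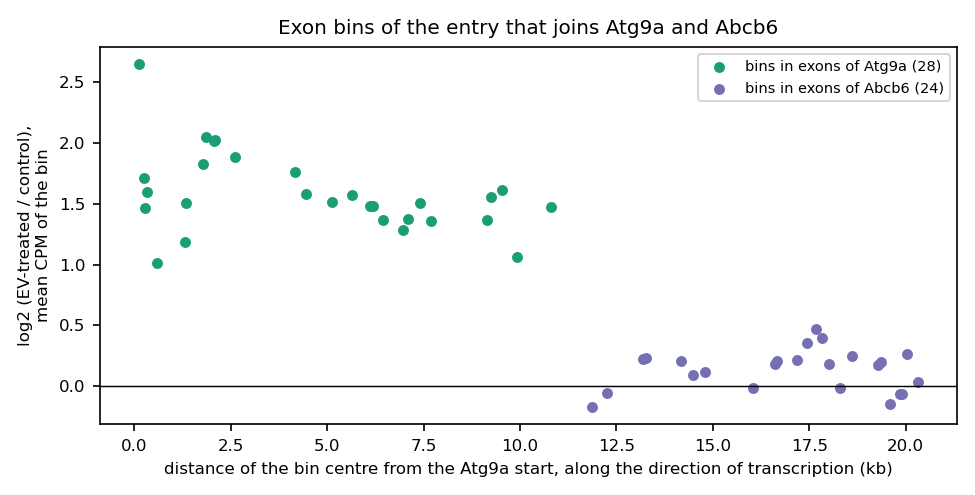
Log2 ratio of mean CPM, EV-treated over control, for each tested exon bin of the entry that joins Atg9a and Abcb6, against the distance of the bin centre from the Atg9a start in kb along the direction of transcription. Each of the 28 Atg9a bins lies at 1.01 or above and each of the 24 Abcb6 bins at 0.47 or below, and the step falls between the genes.

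The ATG12 conjugation system went in both directions. Of 6 genes 2 rose and 3 fell, the median log2 fold change being -0.046, and with the Y-linked to Xist covariate 2 rose and 1 fell. Atg12 (chr18:46732417-46741579), the ubiquitin-like protein that is conjugated, went from 43.3, 44.7 and 38.9 CPM to 104, 118 and 93.8 CPM. All EV-treated libraries were above all control libraries (log2 fold change 1.32, SE 0.12, edgeR adjusted p = 6.40e-06). The enzymes that conjugate it fell. Atg7, the E1-like enzyme that activates both ATG12 and the ATG8 proteins, was at 152 ± 3.96 CPM in control and 90.0 ± 5.50 CPM after EVs (-0.76, adjusted p = 8.68e-05). Atg10, the E2-like enzyme for ATG12, was at 7.23 ± 0.864 and 4.12 ± 0.813 CPM (-0.81, adjusted p = 0.00254), and was at -0.36 with the Y-linked to Xist covariate (adjusted p = 0.354). Atg5, the acceptor of ATG12, did not pass: 31.5 ± 1.40 and 36.2 ± 4.95 CPM, with overlapping groups (0.20, adjusted p = 0.16).

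Atg16l1, which joins ATG12-ATG5 to the membrane, rose from 40.8 ± 2.23 to 68.7 ± 3.48 CPM (log2 fold change 0.75, edgeR adjusted p = 8.57e-05). Its paralog Atg16l2 was called lower, 21.2 ± 2.39 and 17.3 ± 1.11 CPM (-0.29, adjusted p = 0.0495), but the call is fragile. It was lost with RLE scaling (adjusted p = 0.0772), DESeq2 (0.0792), limma-voom (0.0529) and a stricter filter (0.0575). It was also lost without control library A or B or EV-treated library B or C (edgeR adjusted p = 0.0711 to 0.181), was 0.0053 with the Y-linked to Xist covariate, and was 2.13 (adjusted p = 1.54e-05) when the bin with the most counts stood for the gene. This bin of 128 bases (chr7:101271680-101271807), an exon of a transcript marked for nonsense-mediated decay, went from 1.76 ± 0.693% to 8.83 ± 1.23% of the gene's counts. That bin shares 25 bases with an exon of Fchsd2 on the other strand, which went from 19.6 to 70.6 CPM (1.85). The strand setting of the counting is not given in the sources used here, and the part of Fchsd2 reads in this bin was not tested.

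The 5 genes of the ATG8 family, the ubiquitin-like proteins that coat the autophagosome and bind cargo receptors, split as 3 that rose, 1 that fell and 1 that did not pass, with a median log2 fold change of 0.46. Gabarap (chr11:69991143-69994951), the most abundant member per kilobase in both groups (164 CPM per kilobase in control and 338 after EVs), stood at 292, 328 and 289 CPM in control and at 626, 727 and 516 CPM after EVs. The EV-treated libraries were all higher and varied more among themselves, from 516 to 727 CPM. The log2 fold change was 1.04 (SE 0.14, edgeR adjusted p = 0.000137). Gabarapl1 was at 134 ± 13.5 and 217 ± 16.1 CPM (0.70, adjusted p = 0.000476). The opposite-strand gene 1700101I11Rik, at 24.5 and 33.5 CPM, covers 28.3% of its counted bases.

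Map1lc3b, the LC3 isoform most used as an autophagosome marker, was at 89.4 ± 13.8 and 123 ± 14.5 CPM (log2 fold change 0.46, edgeR adjusted p = 0.0145). This call was lost without control library C (edgeR adjusted p = 0.0544), without EV-treated library B (0.0519) and on library totals alone (0.10, adjusted p = 0.539). Map1lc3a, its paralog, fell from 21.8 ± 3.20 to 13.0 ± 1.5 CPM (-0.75, adjusted p = 0.00104), and was at -0.38 with an adjusted p of 0.231 with the Y-linked to Xist covariate. Gabarapl2 did not pass, at 33.7 ± 5.98 and 34.8 ± 4.04 CPM (0.05, adjusted p = 0.792).

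Per kilobase of exon, Gabarap made up 59.7 ± 2.46% of the ATG8 family total in control and 69.0 ± 2.39% after EVs, a difference of 9.36 percentage points. The share of Map1lc3a was 6.71 ± 0.816% and 2.27 ± 0.399%, and that of Gabarapl2 5.23 ± 0.525% and 3.07 ± 0.0896%. For each of these the 3 libraries of one group lay apart from those of the other. The exact permutation test gave p = 0.1 (2-sided), which is the smallest p that 3 against 3 allows, and 0.125 after adjustment over the 5 genes. Map1lc3b stood at 4.30 ± 0.358% and 3.37 ± 0.205%, and Gabarapl1 at 24.1 ± 1.15% and 22.3 ± 2.11% (exact permutation p = 0.5). A read over several bins may be counted in each. The levels depend on this: with the bin of the most counts for each gene, the control libraries held 14.2% to 14.9% for Map1lc3b, 18.1% to 20.6% for Gabarapl2, 12.7% to 13.0% for Gabarapl1 and 46.7% to 49.2% for Gabarap, so the order of the members after Gabarap was not the same. With that bin the difference was 8.67 points for Gabarap, -3.65 for Map1lc3a and -6.63 for Gabarapl2, and it turned upward for Map1lc3b (1.48) and Gabarapl1 (0.126).

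All 5 genes of the ATG4 and ATG3 group rose, with a median log2 fold change of 0.62. ATG4 proteases trim ATG8 proteins before lipidation and release them from the membrane afterwards, and ATG3 is the E2-like enzyme that attaches the lipid. Atg4c (chr4:99193934-99259787) stood at 13.4, 14.3 and 15.7 CPM in control and at 27.4, 27.8 and 29.2 CPM after EVs. Both groups were tight and lay apart, and the log2 fold change was 0.96 (SE 0.11, edgeR adjusted p = 2.89e-05). Atg4a was at 13.8 ± 0.489 and 24.3 ± 4.71 CPM (0.81, adjusted p = 0.000656), Atg4b, the protease with the broadest activity on ATG8 proteins, at 46.3 ± 1.48 and 71.1 ± 7.89 CPM (0.62, adjusted p = 0.000666), and Atg4d at 28.9 ± 1.51 and 40.5 ± 0.606 CPM (0.49, adjusted p = 0.00109). Atg3 was at 44.6 ± 3.44 and 56.8 ± 6.89 CPM (0.35, adjusted p = 0.0243). On library totals alone 3 of the 5 rose, with Atg4d at 0.12 (adjusted p = 0.319) and Atg3 at -0.024 (adjusted p = 0.868). Atg3 was also lost without control library A or C or EV-treated library A or B (edgeR adjusted p = 0.0614 to 0.124). The bin with the most counts gave -0.65 for Atg4d (adjusted p = 0.00124), the opposite direction. That bin is the 4027-base 3′ bin described below, which shares 1116 bases with exons of Kri1 on the other strand.

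The cargo receptors and the tether held the highest rise of the whole set. Optn (chr2:5020642-5064051) encodes optineurin, a receptor that links ubiquitin-marked mitochondria and bacteria to ATG8 proteins. It stood at 36.2, 34.6 and 32.6 CPM in control and at 148, 154 and 137 CPM after EVs. The lowest EV-treated library was far above the highest control library, and the log2 fold change was 2.08 (SE 0.10, edgeR adjusted p = 1.33e-07). The range over all alternatives was 1.72 on library totals alone to 2.26 with the Y-linked to Xist covariate. Nbr1, another ubiquitin-binding receptor, was at 161 ± 4.63 and 218 ± 2.23 CPM (0.44, adjusted p = 0.00244; 0.073 on library totals alone, adjusted p = 0.537). Calcoco1, a receptor for endoplasmic reticulum, fell from 52.3 ± 4.65 to 36.2 ± 2.10 CPM (-0.53, adjusted p = 0.00147). With the Y-linked to Xist covariate neither Nbr1 (0.39, adjusted p = 0.122) nor Calcoco1 (-0.29, adjusted p = 0.242) passed. Epg5, which tethers autophagosomes to late endosomes and lysosomes, was at 32.3 ± 4.44 and 24.6 ± 6.08 CPM and did not pass (-0.39, adjusted p = 0.0812), with overlapping groups. It passed as lower on library totals alone (-0.75, edgeR adjusted p = 0.00653), with upper-quartile scaling (-0.51, 0.0322) and with no filter (-0.46, 0.00266). The same held with a replicate block (edgeR adjusted p = 0.00508) and without control library B (0.0362) or EV-treated library C (0.015). The 4 genes thus comprised 2 that rose and 1 that fell, with their median at 0.024, and on library totals alone 1 rose and 2 fell.

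**Figure D3:**
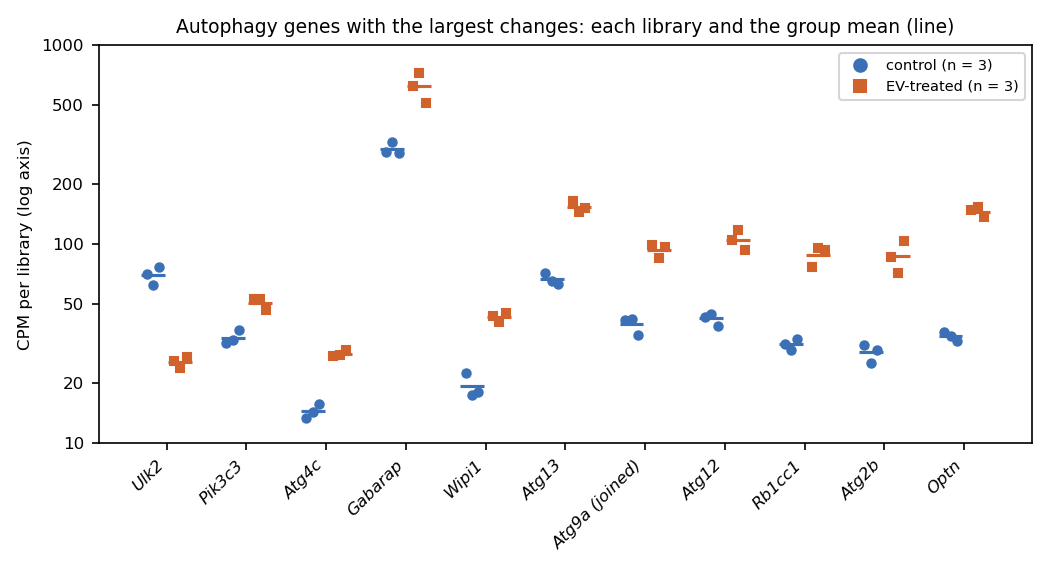
CPM of the 11 autophagy genes that changed by at least 1 on the log2 scale or changed most in their role group, for each control library (circles) and each EV-treated library (squares) on a log axis, with the group mean as a line (n = 3 each). In all 11 the 2 groups of points lie apart, above for 10 genes and below for Ulk2.

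The count table divides each gene into exon bins, so the use of a bin can be compared with the rest of its gene. Bin use was tested with edgeR's diffSpliceDGE over 198361 bins, of which 8320 (4.19%) changed. In the autophagy genes 52 of 916 bins changed (5.68%; 34 without control library B), and 27 of the 52 were in the entry that joins Atg9a with Abcb6. There, 5 of 28 Atg9a bins were used more and 22 of 24 Abcb6 bins less, which is the division described above. In the other members 25 of 864 bins (2.89%) changed, 12 upward and 13 downward, in 13 genes.

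Several of the lower bins were long stretches at the 3′ end. For a description, the longest tested bin of at least 500 bases beyond the coding span was taken in each gene, a rule chosen after values had been seen. Such a bin existed in 31 members. It was used less in 5 (9.11% of 7027 genes overall) and more in none (1.05% overall), its log2 relative use was below 0 in 29 of the 31 and in 4872 of all 7027 genes, and the median was -0.20 against -0.088 over all 7027 genes. In Atg4b the 2431-base bin at chr1:93788180-93790610 held 7.17 ± 0.127% of the gene's counts in control and 1.75 ± 0.0484% after EVs (log2 relative use -2.04, edgeR adjusted p = 7.89e-21). The nearest other entry, Dtymk on the other strand, lies 1966 bases away and fell by 1.53 on the log2 scale. In Rb1cc1 the 1085-base bin at chr1:6274491-6275575 held 3.68 ± 0.684% and 1.68 ± 0.0551% (-1.14, adjusted p = 2.66e-06). In Wipi2 the 3101-base bin at chr5:142667488-142670588 held 27.2 ± 1.39% and 17.9 ± 1.40% (-0.61, adjusted p = 0.0102).

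In Atg4d the 4027-base bin at chr9:21273746-21277772 held 37.1 ± 1.03% of counts in control and 16.0 ± 2.57% after EVs (log2 relative use -1.22, edgeR adjusted p = 4.79e-11). It shares 1116 bases with exons of Kri1 on the other strand, which fell from 41.2 to 24.6 CPM (-0.74), and the part of Kri1 reads was not tested. The fifth, a 4071-base bin of Atg16l2 at chr7:101285321-101289391, held 4.02 ± 0.0764% and 1.66 ± 0.611% (-1.30, adjusted p = 0.000141). It rests on few counts, 127, 104 and 145 in control libraries A, B and C and 22, 37 and 44 in EV-treated libraries A, B and C. Fchsd2 on the other strand lies 916 bases away and rose by 1.85 on the log2 scale. Wipi1 had a further long bin, of 1925 bases at chr11:109575132-109577056. It is the end of the transcript Wipi1-201 and lies inside the coding span of another isoform, so the rule did not take it. Its share was 7.69 ± 0.823% in control and 2.37 ± 0.251% after EVs (-1.68, adjusted p = 8.31e-12). Arsg on the other strand lies 1802 bases from this Wipi1 bin and rose by 1.03 on the log2 scale.

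**Figure D4:**
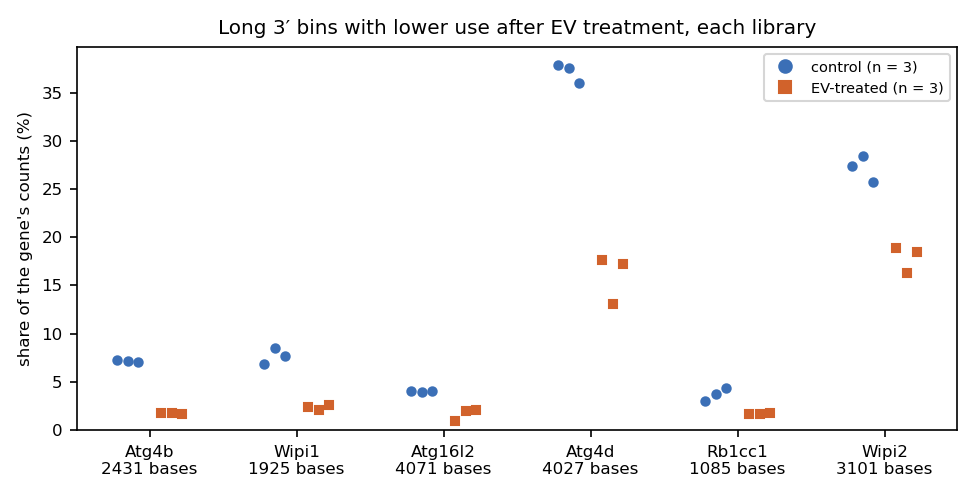
Share of a gene's counts (%) that fell in 1 long bin at or near the 3′ end, for each control library (circles) and EV-treated library (squares), n = 3 each, in 6 autophagy genes with the bin's length under the name. In all 6 the EV-treated points lie below the control points, as for Atg4d at 37.1% and 16.0% on average.

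At the 5′ end, Atg4c used its first exon more. Its bins at chr4:99193934-99194146 and chr4:99194284-99194452, before the coding span, went from 1.97 ± 0.385% to 4.88 ± 0.769% and from 5.16 ± 0.441% to 10.5 ± 1.75% of counts (log2 relative use 1.33 and 1.02). In Atg13 a 273-base first-exon bin at chr2:91710247-91710519 went the other way, from 5.54 ± 0.322% to 3.52 ± 0.166% (-0.66, edgeR adjusted p = 0.00293). A 774-base retained intron of Pik3r4 rose within the gene but stayed rare, at 0.0888 ± 0.0900% and 0.551 ± 0.123% of its counts.

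The other genes of the pathway were taken from 5 lists of 94 genes, of which 93 were tested. In all, 36 rose and 30 fell, and their median log2 fold change was 0.041, against 33.0% risen and 33.5% fallen among all entries. On library totals alone 22 rose and 46 fell, with the median of all entries at -0.38. The shares of all entries that rose or fell in that setting are not given here. The core autophagy genes described above stood at 25 risen and 7 fallen of 37.

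Of 21 cargo receptor genes outside the set, 11 rose and 6 fell, and the median was 0.30 (9 and 9 on library totals alone). Bnip3, a mitophagy receptor of the outer mitochondrial membrane, went from 13.6, 13.4 and 10.5 CPM to 768, 865 and 688 CPM. The groups were far apart, and the log2 fold change was 5.95 (SE 0.17, edgeR adjusted p = 6.48e-09). Tax1bp1, a ubiquitin-binding receptor, went from 138 ± 4.82 to 718 ± 62.9 CPM (2.38, adjusted p = 1.38e-07). Fundc1, another mitophagy receptor, fell from 25.6 ± 0.881 to 14.8 ± 0.954 CPM (-0.79). Ccpg1, a receptor for endoplasmic reticulum, is counted in an entry with 2 other genes, and that entry was at -1.65.

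Of 18 further core genes and regulators, 7 rose and 6 fell, and the median was 0.030. Snx18, a membrane-bending sorting nexin, rose from 43.9 ± 4.75 to 197 ± 14.3 CPM (2.16, adjusted p = 2.92e-07), and Tmem41b, a scramblase of the endoplasmic reticulum, from 21.4 ± 0.457 to 45.7 ± 3.85 CPM (1.09). Trp53inp1, which binds ATG8 proteins, fell from 17.5 ± 1.37 to 6.43 ± 0.876 CPM (-1.45). Usp10, a deubiquitinase of Beclin 1, is counted with Galnt2 and a gene model, and that entry was at -1.71. Of 15 genes of fusion with lysosomes, 6 rose and 3 fell (1 and 7 on library totals alone). Vps39, of the HOPS tethering complex, rose from 64.7 ± 4.48 to 152 ± 9.04 CPM (1.24), and Rab33b, a small GTPase that binds ATG16L1, from 10.7 ± 0.0235 to 15.8 ± 1.43 CPM (0.56). The Rab33b call was lost on library totals alone (0.19, adjusted p = 0.205) and with the Y-linked to Xist covariate (0.51, adjusted p = 0.106). Rilp, an effector of RAB7, fell from 5.05 ± 1.19 to 0.923 ± 0.0486 CPM (-2.45), and the SNARE gene Stx17 from 18.8 ± 1.23 to 11.4 ± 1.07 CPM (-0.72), although the Stx17 bin with the most counts gave -0.30 (adjusted p = 0.0952).

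Of 30 tested genes of mTORC1, AMPK and nutrient sensing, 10 rose and 11 fell, with the median at 0.0049 (6 and 16 on library totals alone). The mTORC1 inhibitor gene Ddit4 went from 1.30, 0.812 and 1.22 CPM to 86.7, 95.4 and 85.6 CPM. The log2 fold change was 6.32 (SE 0.19, edgeR adjusted p = 7.08e-09), the highest in these lists. Deptor, which encodes an inhibitory partner of mTOR, fell from 5.22 ± 0.592 to 0.455 ± 0.0271 CPM (-3.52), and the stress-responsive Sesn1 from 48.2 ± 5.85 to 8.25 ± 0.717 CPM (-2.55). Rragd, a RAG GTPase that holds mTORC1 at the lysosome, rose from 21.1 ± 1.37 to 77.9 ± 2.61 CPM (1.88).

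Of 9 transcription factor genes that act on autophagy genes, 2 rose and 4 fell, and the median was -0.30. The 3 FOXO genes did not move together. Foxo1 rose from 9.04 ± 0.752 to 23.4 ± 3.66 CPM (1.37) and Foxo3 from 58.0 ± 3.14 to 115 ± 21.6 CPM (0.98), while Foxo4, named after its values were seen, fell from 15.4 ± 1.83 to 7.61 ± 0.758 CPM (-1.02). Mitf, a relative of TFEB, fell from 84.2 ± 10.7 to 20.5 ± 3.75 CPM (-2.04), beside Tfeb itself at 52.4 ± 7.28 and 4.21 ± 0.343 CPM.

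**Figure D5:**
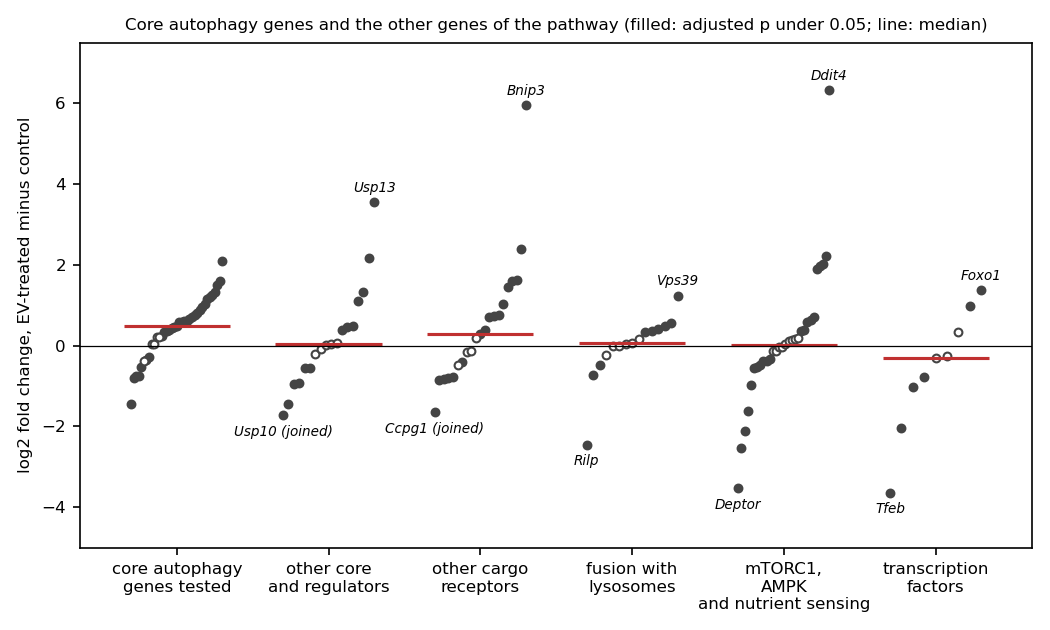
Log2 fold change, EV-treated minus control, of the 37 tested core autophagy genes and of the 93 tested genes in 5 other lists of the pathway, ordered within each column; filled points have an edgeR adjusted p under 0.05, the line is the column median, and the ends of each list are named. The core genes have a median of 0.49 and span -1.45 to 2.08, and the lists of cargo receptors and nutrient sensing reach 5.95 (Bnip3) and 6.32 (Ddit4).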

How the data were processed

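Polyadenylated RNA from 6 samples of cultured microglia (3 control, 3 EV-treated) was sequenced from NEBNext Ultra libraries, per the labels' protocols. Trimmomatic 0.36, STAR, Subread and DESeq2, with the build GRCm38, are named in the submitters' processing notes, and the sources used here give neither the annotation release nor the strand setting. The deposited values are raw counts per exon bin, per the file headers, for 425461 bins. Sample tables and series table were identical for all 6 libraries.

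Bin counts were added up within each of 48005 gene entries, of which 1194 join genes that overlap and hold 11.3% to 16.5% of the counts. A read that spans several bins may be counted in each, so the sums are not numbers of distinct reads. Symbols were found for 49298 of 49644 identifiers. Entries were filtered with filterByExpr, scaled by TMM (control factors 1.09 to 1.16, EV factors 0.855 to 0.921) and tested with edgeR 4.0.16 (glmQLFit and glmQLFTest, limma 3.58.1, R 4.3.3), with Benjamini-Hochberg adjustment over the 16605 entries and a threshold of 0.05. Each SE was derived from the F statistic. The common biological coefficient of variation was 0.174. Bin use was tested with diffSpliceDGE. Tables were made with pandas 2.3.3 in Python 3.11.15. Exon names are from GENCODE vM21 (GRCm38).

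On simulated counts of 15567 genes the gene test found 88% of the genes lowered by 2 on the log2 scale, 96% of those raised by 2, 68% of those lowered by 1 and 76% of those raised by 1. It made 10 false calls. How the gene test performs where most entries change, as between the control and EV-treated libraries, was not tested. The bin test on 15000 simulated bins recovered 93% of the changed ones, with 33 false calls. All changed bins were moved by the same amount, up or down, and the same dispersion was set for every bin. The median estimate for the bins moved upward was 1.11 on the log2 scale. Recovery of smaller changes in bin use was not tested.

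Values per library are given for members changed by at least 1 on the log2 scale and for the member with the largest change of each role. From each list of other pathway genes, up to 2 rising and 2 falling genes with the smallest p and a mean log2 CPM of at least 1 are named. The members and lists were chosen with earlier results of these data known. Alternatives were RLE, upper-quartile and library-total scaling, 2 filters, DESeq2 1.42.0, limma-voom, a replicate block, the log2 ratio of Y-linked to Xist counts as a covariate, the bin with the most counts, joined entries left out and each library left out. The Atg9a bins alone, the ATG8 shares by bin and the bin count without the joined entry were chosen after seeing the data.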

Additional observations from a re-analysis of the deposited data

How the results depend on the processing

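Of the values for single autophagy genes under the alternatives, 576 kept their direction and their side of the threshold, 59 lost the call, 12 gained it and 18 changed sign. On library totals alone 15 autophagy genes rose (25 with TMM), their median log2 fold change was 0.12, and 22 of the other pathway genes rose and 46 fell (36 and 30 with TMM). The median of all entries was -0.38 in that setting. The log2 fold change was then -0.17 for Atg5, -0.024 for Atg3, -0.15 for Becn1, -0.13 for Uvrag, -0.028 for Ulk1 and -0.32 for both Gabarapl2 and Atg101. With upper-quartile scaling the median was 0.37, and Gabarapl2 was at -0.075 and Atg101 at -0.071. With no filter they were at -0.029 and -0.026. With 1 library left out they ran from -0.10 to 0.15 and from -0.10 to 0.16, both below 0 without control replicate C or EV-treated replicate B. With the Y-linked to Xist covariate 2 autophagy genes fell (7 without it), Atg16l2 was at 0.0053 and Prkag1 at 0.13. Prkag1 ran from -0.11 to 0.033 with 1 library left out, above 0 without EV-treated replicate C. The bin with the most counts gave 2.13 for Atg16l2 and -0.65 for Atg4d, each a bin that shares bases with exons of an opposite-strand gene. For the ATG8 shares, that choice of bin gave -3.65 points for Map1lc3a, 1.48 for Map1lc3b, 0.126 for Gabarapl1 and -6.63 for Gabarapl2. Bins with changed use numbered 52 in the main test, 34 to 47 with 1 library left out (34 without control replicate B), 35 at a threshold of 0.01 and 25 without the joined entry. The causes of these shifts were not tested, apart from those that follow from fewer samples or bins. With the replicate letter as a block 26 autophagy genes rose and 8 fell, and 59 bins changed; Becn1 and Epg5 then passed. The letters were not taken to pair the samples, because nothing in the sources used here states that they do. Deviations of libraries with the same letter correlated at 0.0350 (A), 0.167 (B) and 0.210 (C) over genes. With different letters the correlations ran from -0.199 to 0.0341, below each same-letter value, and whether the letters pair the samples was not settled. Each tested autophagy gene had at least 430 counts in every library, so the spread between 3 libraries limits the tests more than counting does.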

Other observations

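The genes below are from the lists of nutrient sensing and cargo receptors and were chosen after their values were seen. Among the 6 AMPK subunit genes in the list, Prkab2, a regulatory beta subunit, rose from 5.13 ± 0.685 to 23.9 ± 3.0 CPM (SD, n = 3; log2 fold change 2.22, edgeR adjusted p = 8.68e-07), and its paralog Prkab1 was at 25.6 ± 1.70 and 33.4 ± 3.46 CPM (0.38, adjusted p = 0.0127, and 0.015 on library totals alone; lost also without control library C or EV-treated library A, adjusted p = 0.0541 and 0.0741). The gamma subunit gene Prkag2 fell from 22.2 ± 0.916 to 7.21 ± 0.361 CPM (-1.62, adjusted p = 9.07e-07), while Prkag1 was at 25.7 ± 1.53 and 24.9 ± 2.86 CPM (adjusted p = 0.745). Both catalytic subunit genes fell, Prkaa1 by 0.37 and Prkaa2 by 0.97 on the log2 scale. Of the sestrins, stress-responsive inhibitors of mTORC1, Sesn3 rose from 3.70 ± 0.427 to 15.1 ± 1.26 CPM (2.03, adjusted p = 1.04e-06) and Sesn2 was at 1.97, against Sesn1 at -2.55.

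Of the ubiquitin-binding receptors outside the set, Sqstm1, which encodes p62, stood at 708, 868 and 513 CPM in control and at 2298, 2264 and 1900 CPM after EVs (log2 fold change 1.63, SE 0.19, edgeR adjusted p = 4.84e-05). The control libraries spread by more than their EV-treated counterparts in proportion, and the groups did not overlap. Tbk1, the kinase that phosphorylates optineurin, rose from 83.2 ± 2.59 to 171 ± 6.34 CPM (1.04, adjusted p = 8.67e-06), Tollip from 84.2 ± 8.34 to 231 ± 14.3 CPM (1.45, adjusted p = 2.92e-06), and Bnip3l, a mitophagy receptor related to Bnip3, from 153 ± 27.6 to 466 ± 42.5 CPM (1.61, adjusted p = 1.01e-05).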
